A study of Mus musculus with 16 samples.

Results

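The proteasome genes described here are the 45 genes of both expression tables whose symbols begin with Psma, Psmb, Psmc, Psmd, Psme, Psmf or Psmg followed by a digit, leaving out Psmb8, Psmb9 and Psmb10, which encode the inducible catalytic subunits of the immunoproteasome. They were selected by name, from 15080 genes in the table of leukemia cells and 13344 genes in the table of host cells. The family was chosen with earlier results of these data known. By subcomplex they comprised 7 alpha subunits and 7 beta subunits of the core particle, 9 subunits of the base and 8 of the lid of the regulatory particle, 6 genes of alternative activators and of a proteasome inhibitor, and 7 assembly factors. The remaining gene, Psmc3ip, shares only its name with the family and encodes a factor of meiotic recombination.

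The study asked how IL-6 made by the host shapes B-cell acute lymphoblastic leukemia (B-ALL) in the bone marrow. Mice on the C57BL/6J background, either wild type (WT) or IL-6 knockout (IL-6 KO), received 500000 leukemia cells by tail vein and were left untreated for 8 days; hosts were between 6 and 8 weeks old at the start. Marrow of femur and tibia was cleared of red cells by lysis and sorted into live mCherry+ leukemia cells, called tumor, and live mCherry- host cells, called stroma. RNA from 4 libraries of each of the 4 groups (WT tumor, IL-6 KO tumor, WT stroma and IL-6 KO stroma) was sequenced after depletion of ribosomal RNA.

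Leukemia cells in every mouse carried BCR-ABL and lacked Arf (Arf-/-), and they came from 1 line marked with luciferase and a retroviral mCherry. The deletion of Il6 therefore lay in the host and not in the leukemia cells, whose own Il6 gene was not reported as altered. The stroma libraries held whatever host marrow cells remained after lysis, without enrichment for one type. Il6 itself is not analysed here, so that the knockout was not checked on its own transcript.

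The proteasome is the protease that degrades most ubiquitin-tagged proteins. Its barrel-shaped core holds the catalytic sites on beta subunits, closed at either end by rings of alpha subunits, and a regulatory particle recognises ubiquitin, removes it, unfolds the protein and feeds it into the core. B-lineage cells that make much protein depend on it, and proteasome inhibitors are used against several lymphoid cancers. Genes for the standard subunits are expressed in nearly all cells and are known to rise together when proteasome activity is short.

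Values are normalized counts as deposited, in which each library was scaled by its own size factor within its table. Recurring low values gave what 1 read was worth in each library, from which depth was computed. WT tumor libraries held 26200000 to 39800000 reads and IL-6 KO tumor libraries 42200000 to 78300000, so that depth differed with genotype in tumor. Stroma libraries held 11900000 to 41300000 reads in WT and 12900000 to 32100000 in IL-6 KO hosts. The 2 most abundant genes of a library held 16.5 to 25.3% of reads in WT tumor, 26.4 to 33.9% in IL-6 KO tumor, 39.5 to 71.6% in WT stroma and 72.4 to 86.5% in IL-6 KO stroma, so that this share was higher in IL-6 KO hosts without overlap in either table. Without those genes, stroma libraries held 6600000 to 12400000 reads in WT and 1900000 to 8200000 in IL-6 KO hosts. The median proteasome gene had 2441 to 4022 reads in WT tumor libraries, 2879 to 6234 in IL-6 KO tumor libraries, 131 to 400 in WT stroma libraries and 38.3 to 91.7 in IL-6 KO stroma libraries. Libraries differed more in stroma than in tumor. The median proteasome gene had a coefficient of variation of 4.45% among WT tumor, 10.4% among IL-6 KO tumor, 34% among WT stroma and 37.8% among IL-6 KO stroma libraries. Summed B-lineage markers, all 8 of them in both tables, were at 125378 to 129007 in WT tumor and 137948 to 141192 in IL-6 KO tumor. In tumor 1 of these 8 markers was called higher and 1 lower, and 6 had positive estimates. Their sums were 438 to 1438 in stroma, a table that was normalized separately. Markers of other cells moved with genotype in tumor. Summed levels of 10 mature neutrophil markers were 4377 to 4946 in WT tumor and 6603 to 16583 in IL-6 KO tumor, with 8 of 10 called higher, and those of 5 neutrophil precursor markers were 282 to 426 and 785 to 1678, with 5 of 5 called higher. Of 6 monocyte and macrophage markers, which summed to 419 to 680 in WT and 534 to 1383 in IL-6 KO tumor, Ly6c2 (2.08 on the log2 scale, limma adjusted p = 0.00219) and Ccr2 (1.22, 0.0126) were called higher. Only 3 of these 6 markers had positive estimates, and 0 were called lower, so the list as a whole had no single direction. Proliferation markers summed to 116658 to 129561 and 128361 to 134232, with 2 of 7 called higher, and 1 of 7 mesenchymal and endothelial markers tested was called lower. Among the IL-6 KO tumor libraries, library 3 had the lowest neutrophil sums. The part of depth, of the share held by the 2 most abundant genes and of these cell markers in the results below was not tested. In stroma, Cdh5, Cxcl12 and Lepr, defining genes of endothelial and stromal cells, were not among the listed genes, and the other 5 of 8 mesenchymal and endothelial markers summed to 292 to 562 in WT and 183 to 1662 in IL-6 KO libraries. Summed erythroid markers of stroma, 8 of 10 in the table, were at 105396 to 152465 in WT and 44344 to 193490 in IL-6 KO libraries. In such bulk libraries, fewer cells of a type and less RNA per cell cannot be told apart.

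In tumor, proteasome genes moved in both directions between hosts. All 9 genes called higher in IL-6 KO hosts belonged to the regulatory particle or the beta ring. This division changed when a trend on GC content and transcript length was removed, as given below. All 45 genes passed a mean normalized count over 10, as did 14493 genes in all. A limma test on log2(normalized count + 1), with Benjamini-Hochberg adjustment over all of those genes and a threshold of 0.05, called 9 proteasome genes higher in IL-6 KO tumor (20% of them), beside 10.6% of all genes tested. It called 5 lower (11.1%), beside 9.16% of all genes tested. Libraries of the 2 groups did not overlap for 11 genes that were higher, beside 13.6% of all genes, and for 6 that were lower, beside 12% of all genes. Fold changes were small. Their median was 0.07 on the log2 scale, beside -0.01 over all genes, and 33 of 45 were positive, beside 49.3% of all genes. No gene moved by more than 0.55 in either direction, and the median SE was 0.09, beside 0.14 over all genes tested. A smaller SE lets smaller changes pass the threshold, and its part in the shares called was not tested. The labels number the libraries but do not say that each came from a separate mouse, so the p-values measure the spread between these libraries.

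Under quantile normalization the split of 9 higher and 5 lower became 6 higher and 7 lower. The count depended on single libraries. Without IL-6 KO tumor library 2, which had the lowest weight of the tumor libraries in limma's array weights (0.33), 15 proteasome genes were called higher, and without WT tumor library 3, IL-6 KO tumor library 1 or IL-6 KO tumor library 4, 5 were. Without IL-6 KO tumor library 1, 3 rather than 5 were called lower. Of the 14 called genes, 5 (Psmb6, Psmc5, Psmd4, Psmd5 and Psme4) were called in the same direction in all 17 alternative settings, of which 8 each left out 1 library.

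**Figure D1:**
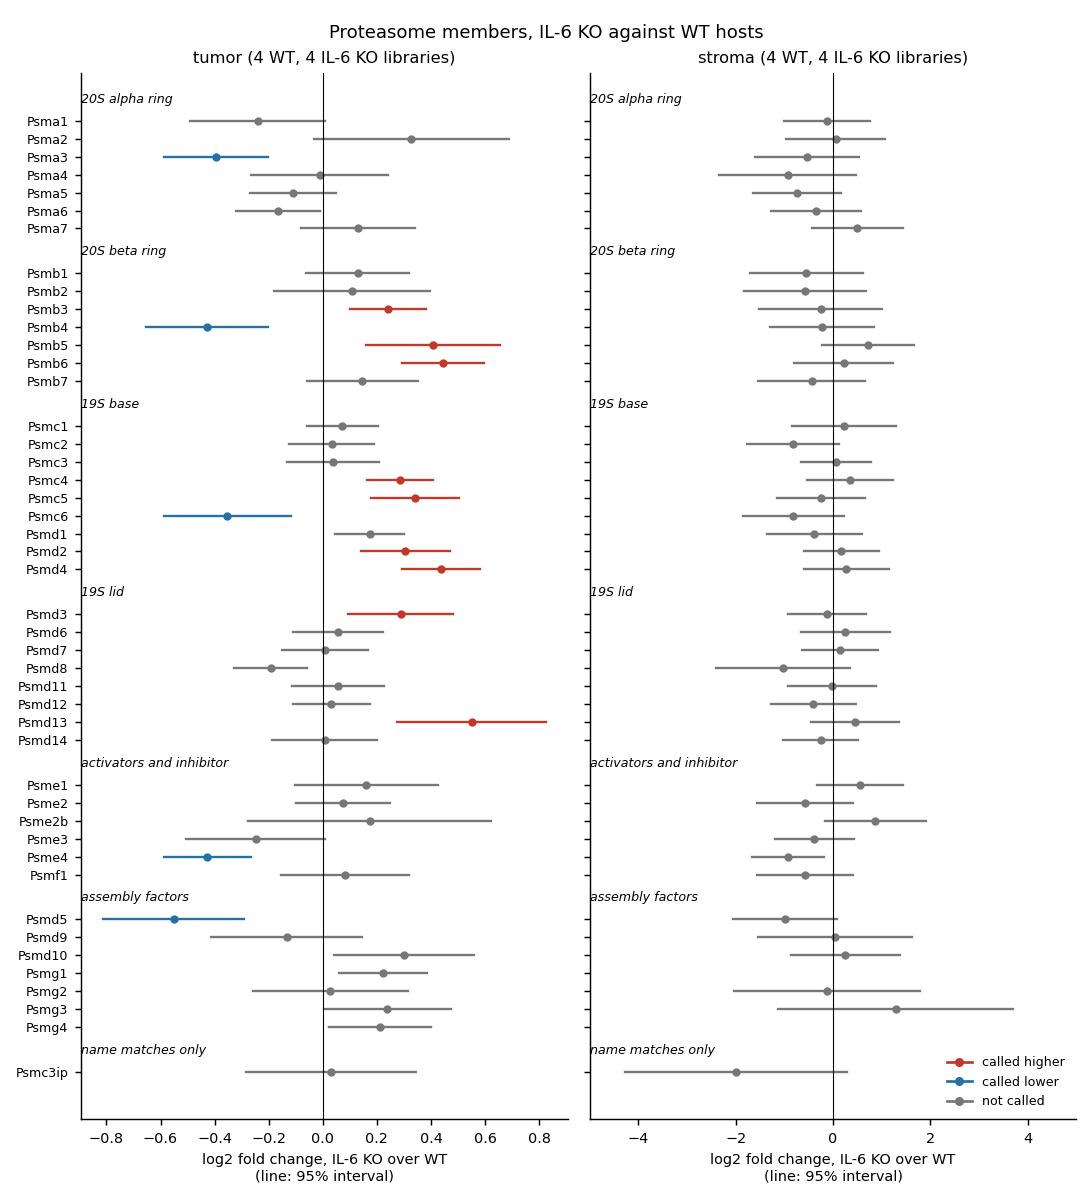
Log2 fold change of each proteasome gene, IL-6 KO against WT, in tumor and in stroma, with 95% confidence intervals from limma and genes ordered by subcomplex. Tumor estimates lie between -0.55 and 0.55 with short intervals, and stroma intervals, drawn on a wider axis, all include 0 except that of Psme4. Red marks genes called higher and blue genes called lower.

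Promoter sequences of 4 called genes are shown because each stands for a different part of the complex and they differ in the motifs that known regulators of proteasome genes bind. They are RefSeq promoters of build GRCm38.p6, 300 bases from 250 before the start of transcription, written 5′ to 3′ on the gene's own strand. Psmb6 lies at chr11:70525107-70525406 (plus strand), Psmd4 at chr3:95042565-95042864 (minus strand), Psmd13 at chr7:140882144-140882443 (plus strand) and Psme4 at chr11:30771525-30771824 (plus strand). Capitals mark TGACNNNGC, the core of the antioxidant response element through which Nfe2l1 drives proteasome genes, CGGAAG, the core bound by ETS factors, and CCAAT, the box bound by the trimer of Nfya, Nfyb and Nfyc, each searched on both strands.
Psmb6: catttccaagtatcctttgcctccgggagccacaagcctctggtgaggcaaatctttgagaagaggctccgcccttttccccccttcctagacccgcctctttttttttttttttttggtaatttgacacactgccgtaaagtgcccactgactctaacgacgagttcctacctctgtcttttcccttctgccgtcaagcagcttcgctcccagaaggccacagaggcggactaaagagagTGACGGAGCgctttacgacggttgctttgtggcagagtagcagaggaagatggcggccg
Psmd4: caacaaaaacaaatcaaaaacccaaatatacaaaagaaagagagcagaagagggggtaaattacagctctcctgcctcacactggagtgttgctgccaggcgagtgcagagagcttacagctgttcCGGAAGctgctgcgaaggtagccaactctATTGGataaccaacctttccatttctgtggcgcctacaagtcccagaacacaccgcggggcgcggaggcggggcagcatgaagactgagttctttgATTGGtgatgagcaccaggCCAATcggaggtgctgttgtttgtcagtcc
Psmd13: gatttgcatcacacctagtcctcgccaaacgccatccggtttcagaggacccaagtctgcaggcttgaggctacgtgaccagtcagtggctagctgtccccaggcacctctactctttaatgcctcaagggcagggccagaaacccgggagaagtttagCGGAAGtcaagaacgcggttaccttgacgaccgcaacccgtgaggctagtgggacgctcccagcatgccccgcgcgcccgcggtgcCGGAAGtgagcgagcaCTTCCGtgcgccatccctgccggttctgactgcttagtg
Psme4: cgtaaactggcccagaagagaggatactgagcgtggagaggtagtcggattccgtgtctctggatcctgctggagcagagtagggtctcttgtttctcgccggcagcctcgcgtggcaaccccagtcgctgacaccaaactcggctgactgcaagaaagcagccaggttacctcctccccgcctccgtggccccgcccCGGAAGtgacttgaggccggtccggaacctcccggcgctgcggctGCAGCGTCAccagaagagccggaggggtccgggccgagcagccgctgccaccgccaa
In these windows, positions count from 0 at the start base. Psmb6 held TGACNNNGC at -9 and neither of the other motifs. Psmd4 held CGGAAG at -124 and CCAAT at -95, 1 and 20. Psmd13 held CGGAAG at -91, -5 and 11, and Psme4 held CGGAAG at -52 and TGACNNNGC at -7. No motif overlapped another in these windows.

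Promoters were matched for 38 of the 45 genes, with 41 promoters in all since 3 genes have more than 1 entry. CGGAAG occurred in 23 of the 41 (56.1%), beside 16.9% of all 32851 RefSeq promoters and 31.3% of the 12165 promoters of genes tested in tumor. It was present in 5 of 8 promoters of genes called higher, 3 of 5 of genes called lower and 15 of 28 of genes not called. TGACNNNGC occurred in 6 of 41 (14.6%), beside 12.4% of all promoters and 14% of those of tested genes. It occurred in 2 of 8 promoters of genes called higher (Psmb5 and Psmb6) and 2 of 5 of genes called lower (Psmc6 and Psme4). Among promoters of genes not called, 2 of 28 held it (Psmd9 and Psmd12). CCAAT occurred in 13 of 41 (31.7%), beside 37.4% and 38.2%. These are matches of letters in a fixed window and not measured binding.

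The alpha ring, whose subunits form the gated entrance of the core, had 1 gene called lower and none called higher, and a median log2 fold change of -0.11. Psma3 had 5088, 4797, 4903 and 4865 normalized counts in WT tumor libraries 1 to 4 and 3532, 3453, 4461 and 3570 in IL-6 KO tumor libraries 1 to 4. Every WT library lay above every IL-6 KO library, and IL-6 KO library 3 lay closest to WT. The log2 fold change was -0.40 ± 0.09 (SE, n = 4 against 4; limma adjusted p = 0.0133), and it stayed called whichever library was left out. Psma3 has a processed pseudogene, Gm13835, identical to its transcript over 685 nt, so reads could be shared between them. Psma2 went the other way, with 4031, 3190, 3989 and 3891 in WT and 5254, 3245, 5403 and 5369 in IL-6 KO tumor. Library 2 was the lowest of both groups, and the groups overlapped only through it. Psma2 was not called (0.33 ± 0.16, limma adjusted p = 0.179), but without IL-6 KO tumor library 2 its log2 fold change was 0.51 ± 0.09 (limma adjusted p = 0.00504). Psma1 (-0.24 ± 0.11, limma adjusted p = 0.154), Psma5 (-0.11 ± 0.07, 0.296) and Psma6 (-0.17 ± 0.07, 0.118) had negative estimates that did not pass. Psma4 (-0.01) and Psma7 (0.13) did not pass either.

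The beta ring, which carries the catalytic sites, had 3 genes called higher and 1 called lower, with a median log2 fold change of 0.15. Psmb6, the caspase-like catalytic subunit, had 5003, 4353, 4405 and 4696 normalized counts in WT tumor and 6347, 5904, 6620 and 6243 in IL-6 KO tumor. The groups did not overlap, and the log2 fold change was 0.45 ± 0.07 (SE; limma adjusted p = 0.00359), between 0.42 and 0.48 when any 1 library was left out. Psmb5, the chymotrypsin-like catalytic subunit and main target of proteasome inhibitors, had 4956, 3952, 3972 and 4753 in WT and 6223, 4800, 6304 and 6057 in IL-6 KO tumor. IL-6 KO library 2 lay below WT library 1, so the groups overlapped, although the other IL-6 KO libraries lay well above WT. Its log2 fold change was 0.41 ± 0.11 (limma adjusted p = 0.0307), and the adjusted p ranged from 0.00633 to 0.0849 when libraries were left out in turn. The call was kept in 3 of those 8 fits. Psmb5 has a processed pseudogene, Gm3375, that is 98.9% identical over 796 nt. Psmb7, the trypsin-like catalytic subunit, had 5320, 5411, 5077 and 5088 in WT and 5782, 4812, 6522 and 6143 in IL-6 KO tumor. It did not pass (0.15 ± 0.09, limma adjusted p = 0.284), and IL-6 KO library 2 was again the lowest. Without that library its estimate was 0.23 ± 0.06 (limma adjusted p = 0.0234).

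Of the beta subunits without catalytic activity, Psmb3 and Psmb4 were called in opposite directions. Psmb3 had 3563, 3677, 3469 and 3690 normalized counts in WT tumor and 4227, 3963, 4470 and 4370 in IL-6 KO tumor, groups that did not overlap. Its log2 fold change was 0.24 ± 0.06 (SE; limma adjusted p = 0.0259), with an adjusted p of up to 0.0774 when 1 library was left out. Psmb4, which is among the late subunits to join the ring, had 9112, 10273, 7881 and 8528 in WT and 5829, 6268, 7458 and 7036 in IL-6 KO tumor. All IL-6 KO libraries lay below all WT libraries. Psmb4 differed by -0.43 ± 0.10 on the log2 scale (limma adjusted p = 0.0182), and without IL-6 KO tumor library 1 the adjusted p was 0.053. Psmb1 (0.13, limma adjusted p = 0.308) and Psmb2 (0.11, 0.587) did not pass, and without IL-6 KO tumor library 2 Psmb1 did (0.21 ± 0.05, 0.0196).

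**Figure D2:**
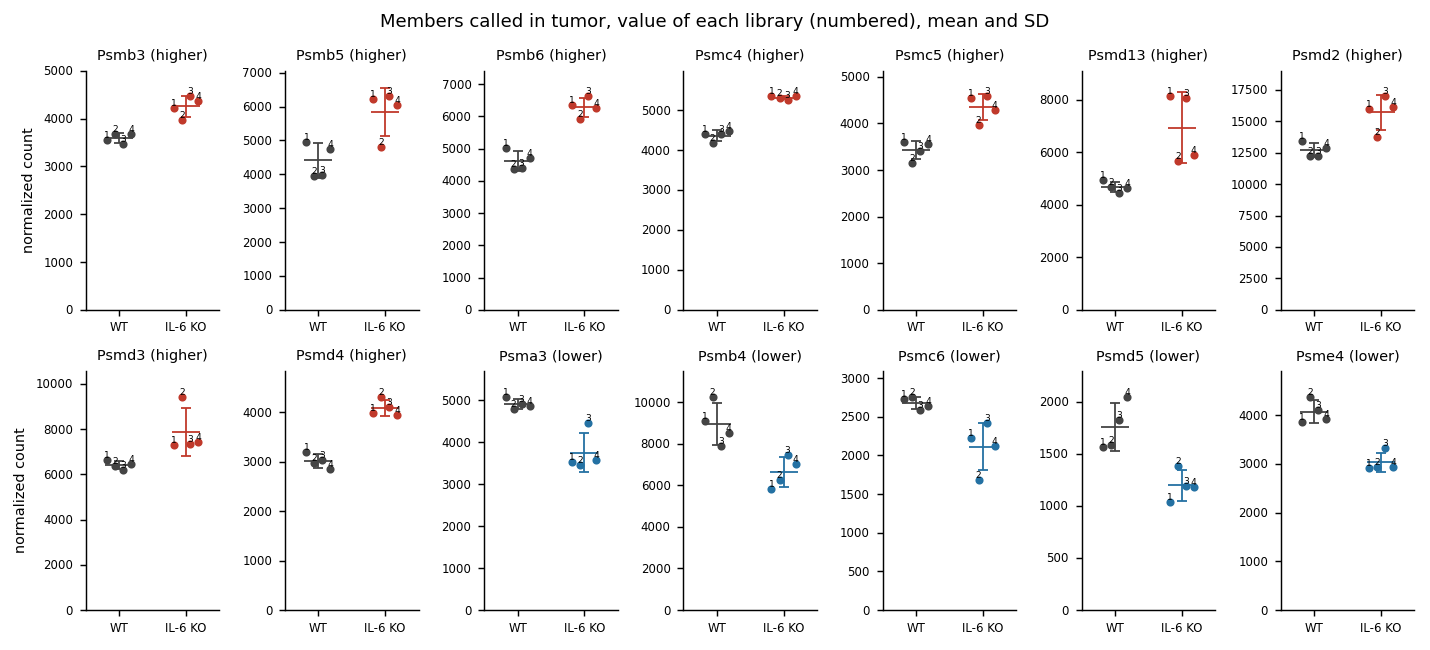
Normalized counts of the 14 called proteasome genes in each tumor library, numbered 1 to 4, with the group mean and SD; each axis starts at 0. Groups separate for 13 of the 14 genes, and for Psmb5 the IL-6 KO library 2 (4800) falls below WT library 1 (4956).

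The base of the regulatory particle, made of the ATPase ring that unfolds substrates and of subunits that bind ubiquitin, had 4 genes called higher and 1 called lower, with a median log2 fold change of 0.17. The ATPase Psmc4 had 4389, 4176, 4409 and 4472 normalized counts in WT tumor and 5343, 5308, 5256 and 5347 in IL-6 KO tumor. Its IL-6 KO libraries had a coefficient of variation of 0.79%, and the log2 fold change was 0.29 ± 0.05 (SE; limma adjusted p = 0.00791). The ATPase Psmc5 had 3597, 3157, 3414 and 3550 in WT and 4546, 3970, 4584 and 4295 in IL-6 KO tumor, with no overlap (0.34 ± 0.07 on the log2 scale, limma adjusted p = 0.0121). Psmc6, also an ATPase of this ring, was lower, with 2731, 2761, 2583 and 2637 in WT and 2229, 1687, 2416 and 2124 in IL-6 KO tumor. IL-6 KO library 2 was the lowest, and no libraries overlapped. The log2 fold change of -0.35 ± 0.10 passed narrowly (limma adjusted p = 0.0417), kept its call in 2 of 8 fits that left out 1 library, and had an adjusted p of up to 0.093 there. Psmc1 (0.07), Psmc2 (0.03) and Psmc3 (0.04) had estimates near 0 and were not called.

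Among the non-ATPase subunits of the base, Psmd4, which captures ubiquitin chains, had the smallest adjusted p of all proteasome genes. It had 3203, 2982, 3045 and 2860 normalized counts in WT tumor and 3987, 4320, 4111 and 3946 in IL-6 KO tumor, and the groups were well apart. Its log2 fold change was 0.44 ± 0.06 (SE; limma adjusted p = 0.003) and lay between 0.41 and 0.47 when any 1 library was left out. Psmd2, a scaffold for ubiquitin-shuttling proteins, had 13400, 12254, 12263 and 12868 in WT and 15981, 13758, 16998 and 16123 in IL-6 KO tumor. IL-6 KO library 2 lay close to WT library 1 without crossing it, and the log2 fold change was 0.30 ± 0.07 (limma adjusted p = 0.0198), kept in 4 of 8 fits without 1 library, with an adjusted p of up to 0.0596. Psmd1, the other large scaffold, had 6343, 6624, 6061 and 6559 in WT and 7274, 7149, 7478 and 6960 in IL-6 KO tumor. Although these did not overlap, Psmd1 missed the threshold (0.17 ± 0.06, limma adjusted p = 0.0584), and it passed without IL-6 KO tumor library 2 (0.18 ± 0.05, 0.0456).

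The lid, which removes ubiquitin from the substrate, had 2 genes called higher and none called lower, and its median log2 fold change was 0.04 (-0.01 under quantile normalization). Psmd13 had the largest estimate of all proteasome genes. It had 4936, 4670, 4459 and 4651 normalized counts in WT tumor and 8135, 5664, 8061 and 5913 in IL-6 KO tumor. IL-6 KO libraries 1 and 3 lay far above libraries 2 and 4, and all were above WT. Psmd13 differed by 0.55 ± 0.12 on the log2 scale (SE; limma adjusted p = 0.0147), called whichever library was left out. Psmd13 shares 329 nt of identical sequence with Sirt3, which overlaps it on the opposite strand; Sirt3 itself had means of 427 in WT and 430 in IL-6 KO tumor. Psmd3, a structural lid subunit, had 6619, 6374, 6208 and 6440 in WT and 7290, 9439, 7340 and 7420 in IL-6 KO tumor. Library 2 stood far above the other IL-6 KO libraries. Psmd3 differed by 0.29 ± 0.09 on the log2 scale (limma adjusted p = 0.0443) and, without that library, 0.20 ± 0.05 (0.0192), and Psmd3 lost its call when any other library was left out, with an adjusted p of up to 0.104. Psmd8 was lower in every IL-6 KO library, with 5572, 5394, 5395 and 5528 in WT and 4647, 4500, 5110 and 4908 in IL-6 KO tumor. It missed the threshold (-0.19 ± 0.06, limma adjusted p = 0.0505) and passed without IL-6 KO tumor library 3 at an adjusted p of 0.046. Psmd14, the deubiquitinase of the lid, was not called (0.01 ± 0.09, limma adjusted p = 0.963), with a 95% interval of -0.19 to 0.20. Psmd6, Psmd7, Psmd11 and Psmd12 had estimates of 0.01 to 0.06 and were not called.

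Among the alternative activators, which cap the core in place of the regulatory particle, 1 of 6 genes was called. Psme4, the large activator found in the nucleus and linked to histone breakdown, had 3860, 4381, 4115 and 3922 normalized counts in WT tumor and 2917, 2938, 3332 and 2928 in IL-6 KO tumor. IL-6 KO library 3 was the highest of its group and still lay below all WT libraries. The log2 fold change was -0.43 ± 0.07 (SE; limma adjusted p = 0.0051), between -0.47 and -0.39 when any 1 library was left out. Psme3, the nuclear activator, had 9123, 10373, 10580 and 9148 in WT and 7048, 10244, 8552 and 7447 in IL-6 KO tumor, groups that overlapped through IL-6 KO library 2. It was not called (-0.25 ± 0.11, limma adjusted p = 0.153), and without that library it was (-0.35 ± 0.08, 0.0198). The interferon-inducible activator subunits Psme1 (0.16 ± 0.12, limma adjusted p = 0.361) and Psme2 (0.07 ± 0.08, 0.538) and the inhibitor Psmf1 (0.08 ± 0.11, 0.618) were not called. Psme2b, not called either (0.17 ± 0.20, limma adjusted p = 0.577), is 99.4% identical to Psme2 over 794 nt, so the division of reads between them is uncertain.

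Assembly factors, which build the proteasome without staying in it, had 1 of 7 genes called. Psmd5, which holds ATPases of the base before they meet the core and is lost from the finished particle, had 1567, 1582, 1826 and 2050 normalized counts in WT tumor and 1033, 1388, 1191 and 1179 in IL-6 KO tumor. All IL-6 KO libraries lay below WT. Its log2 fold change of -0.55 ± 0.12 (SE; limma adjusted p = 0.012) was the most negative of all proteasome genes and was called whichever library was left out. Psmg1, part of the chaperone of the alpha ring, had 1871, 1758, 1701 and 1891 in WT and 2246, 1945, 2095 and 2145 in IL-6 KO tumor. Its groups did not overlap, but it missed the threshold (0.22 ± 0.07, limma adjusted p = 0.0587), which it passed without IL-6 KO tumor library 2 (0.26 ± 0.07, 0.0245). Psmg4, of a second chaperone pair, had 573, 555, 543 and 586 in WT and 648, 706, 622 and 638 in IL-6 KO tumor. It was not called (0.21 ± 0.08, limma adjusted p = 0.106), and neither was its partner Psmg3 (0.24 ± 0.11, 0.138). Psmd10, another chaperone of the base, had 729, 727, 690 and 767 in WT and 956, 712, 1021 and 927 in IL-6 KO tumor. IL-6 KO library 2 alone lay within WT. Psmd10 was not called with it (0.30 ± 0.12, limma adjusted p = 0.0969) and was called without it (0.41 ± 0.08, 0.00806). Psmd9 (-0.13) and Psmg2 (0.03) were not called, nor was Psmc3ip (0.03), the gene that shares only the name.

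Across the 9 genes called higher, the mean deviation from each gene's mean was 0.22, 0.10, 0.25 and 0.16 on the log2 scale in IL-6 KO tumor libraries 1 to 4 and between -0.23 and -0.11 in WT. Library 2, again the lowest of the IL-6 KO libraries, had 7 of the 9 genes above their mean, and the other IL-6 KO libraries had 9 of 9. These genes were chosen for this difference, so their deviations are a description.

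Called genes differed in base composition. Representative transcripts of the 9 called higher had 51.3 to 58.3% GC, and those of the 5 called lower had 37.0 to 52.2%, with only Psmb4 over 51%. The same held for all genes, where those called higher had a median GC content of 54.9% and those called lower 45.2%. Spearman's rho between GC content and log2 fold change was 0.49 over the 45 proteasome genes and 0.40 over 14483 genes with a known transcript; these points share libraries, and genes are not independent. When a smooth trend on GC content and transcript length was removed from every library, 6 of the 14 calls were kept. Psmb6 (0.34), Psmc5 (0.28) and Psmd4 (0.27) stayed higher and Psmb4 (-0.51), Psmd5 (-0.44) and Psme4 (-0.29) stayed lower. Psma2 (0.61), Psmd1 (0.24) and Psmd10 (0.48) were then also called higher, and Psmd8 (-0.33) lower. By subcomplex, the 6 genes then called higher were Psmb6 of the beta ring, Psmc5, Psmd4 and Psmd1 of the base, Psma2 of the alpha ring and the assembly factor Psmd10. The lid was no longer among the parts with a gene called higher. Psmc6, called lower at -0.35 before, was at 0.01 (limma adjusted p = 0.969), and Psma3 was at -0.16 (0.185). The other calls lost were Psmb3, Psmb5, Psmc4, Psmd2, Psmd3 and Psmd13, all still with positive estimates of 0.07 to 0.43.

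**Figure D3:**
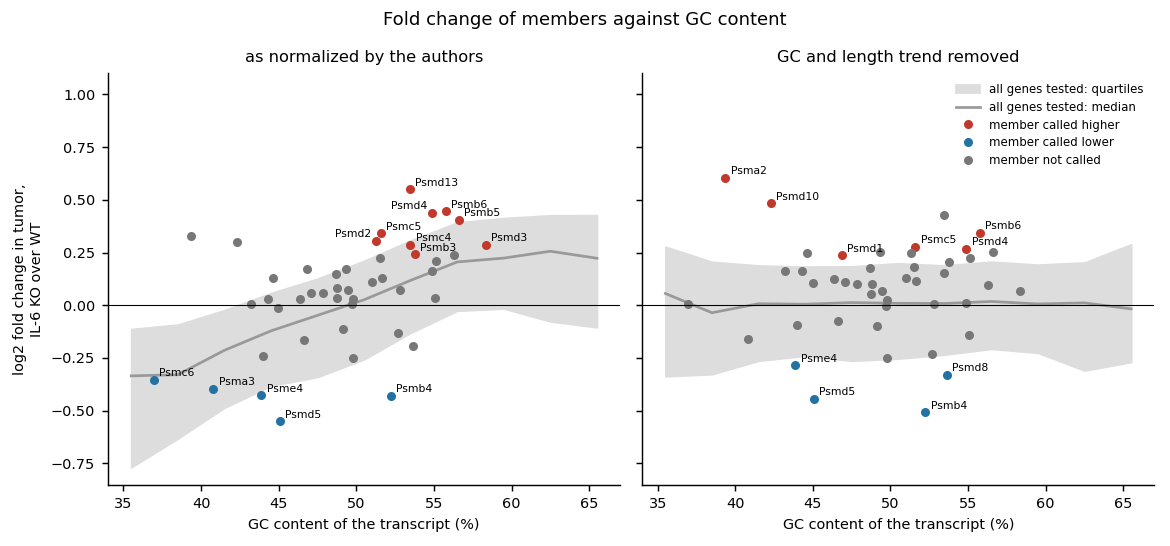
Log2 fold change in tumor against GC content of the representative transcript, as normalized by the authors and with the GC and length trend removed; points are proteasome genes, red where called higher and blue where called lower in that panel, the line is the median and the grey band the quartiles of all genes tested. Over all genes the median rises with GC content in the first panel, and the genes called higher all lie above 51% GC.

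Per kilobase of representative transcript, beta subunits had the highest median level in tumor. Median levels in WT and IL-6 KO tumor, in normalized counts per kb, were 4699 and 5558 for beta subunits, 3288 and 2894 for alpha subunits, 2606 and 3235 for the base and 2382 and 2525 for the lid. These lay at the 93.2 to 96.9 percentile of all genes. Activators and inhibitor had medians of 1933 and 1795, and assembly factors of 530 and 632, although the assembly factor Psmg1 reached 1729 and 2019. Subunits that occupy 1 place each in the same ring differed in level. Within the alpha ring of WT tumor, levels ran from 1297 for Psma2 to 7149 for Psma7, a 5.5-fold range, and within the beta ring from 2330 for Psmb2 to 7564 for Psmb4, a 3.2-fold range. These ranges depend on the transcript chosen for each gene.

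**Figure D4:**
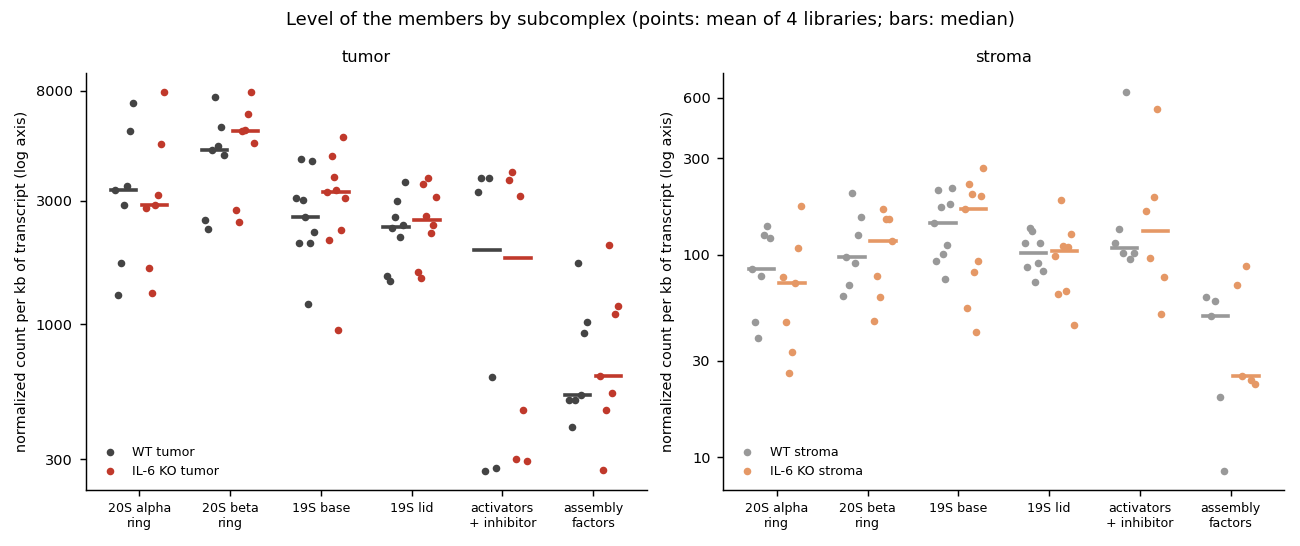
Mean normalized count per kb of transcript of each proteasome gene in the 4 groups, by subcomplex, on a log axis, with bars at the medians; tumor and stroma were normalized separately. In tumor the medians of assembly factors (530 and 632) are the lowest, and in stroma Psme3 lies above all other proteasome genes.

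Other genes of the pathway were taken from fixed lists of immunoproteasome subunits, components with other names, transcriptional control and ubiquitin supply. Of the 3 immunoproteasome subunits, Psmb8, which replaces Psmb5, was called higher in IL-6 KO tumor, beside 10.6% of all genes tested. It had 6173, 5370, 5511 and 5837 normalized counts in WT and 6846, 7687, 6804 and 6634 in IL-6 KO tumor, without overlap, and differed by 0.29 ± 0.07 on the log2 scale (SE; limma adjusted p = 0.0213). With the GC and length trend removed Psmb8 was not called (0.10, limma adjusted p = 0.302). Psmb10 (0.19, limma adjusted p = 0.347) and Psmb9 (-0.11, 0.719), which replace Psmb7 and Psmb6, were not called. The ratio of Psmb8 to Psmb5 per kb was 0.678 to 0.766 in WT and 0.596 to 0.884 in IL-6 KO tumor, ranges that overlapped. The ratio of Psmb9 to Psmb6 was 0.147 to 0.284 and 0.119 to 0.149, which met only at the edge, and that of Psmb10 to Psmb7 was 0.212 to 0.345 and 0.284 to 0.318.

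Of 10 components that carry other names, 1 was called higher and 3 lower, beside 10.6% and 9.16% of all genes tested in tumor. Sem1, a small lid subunit, had 4190, 3416, 3689 and 4059 normalized counts in WT tumor and 6194, 6332, 5530 and 5961 in IL-6 KO tumor, and its log2 fold change of 0.65 ± 0.08 (SE; limma adjusted p = 0.00162) exceeded that of every gene with a Psm name. Pomp, the maturation factor of the core that is degraded once the particle closes, had 2867, 4207, 3323 and 3264 in WT and 2078, 2305, 2133 and 2224 in IL-6 KO tumor (-0.63 ± 0.11, limma adjusted p = 0.0054). Its IL-6 KO libraries lay close together and below all WT libraries. Both calls were kept with the GC and length trend removed, at 0.98 for Sem1 (limma adjusted p = 0.00264) and -0.62 for Pomp (0.00927). Ecpas (-0.37, limma adjusted p = 0.00585), a scaffold of the proteasome, and Akirin2 (-0.38, 0.0268), which carries proteasomes into the nucleus, were lower. With the trend removed Ecpas stayed called (-0.23, limma adjusted p = 0.0377) and Akirin2 did not (-0.33, 0.0586). The ubiquitin receptor Adrm1 was not called (0.13, limma adjusted p = 0.423).

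Of 8 genes through which proteasome genes are induced, 1 was called higher and 0 lower, beside 10.6% and 9.16% of all genes tested. The gene called was Nfe2l1, the transcription factor also called Nrf1. It had 2136, 2641, 3096 and 2867 normalized counts in WT tumor and 3305, 5311, 3480 and 3808 in IL-6 KO tumor. Library 2 was the highest there and the lowest of its group for several of the subunits, a relation that was not tested. The log2 fold change was 0.55 ± 0.16 (SE; limma adjusted p = 0.0372), and it was not called with the GC and length trend removed (0.40, 0.113). Ddi2, the protease that activates Nrf1, was not called (0.22, limma adjusted p = 0.0762; 0.26 and 0.0394 with the trend removed), nor was Vcp (0.25, 0.0517), the unfoldase that draws Nrf1 from the endoplasmic reticulum. Of 17 genes of ubiquitin supply and delivery, 5 were called higher and 1 lower, beside 10.6% and 9.16% of all genes tested. The ubiquitin precursor Ubb (0.41 ± 0.07, limma adjusted p = 0.00601) was among those higher, and Faf1, a cofactor of Vcp, was lower (-0.52, 0.00415).

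In stroma, no proteasome gene was called in either direction. Of the 45 genes, 43 were tested among 12202, since Psmg1 and Psmg4 were below the filter on low values. Limma called 0 of the 43 higher, beside 0% of all genes, and 0 lower, beside 0.0082% of all genes, a single gene. At an unadjusted p under 0.05 the count was 0 higher and 1 lower among the 43 proteasome genes. Over all genes it was 482 higher (3.95%) and 635 lower (5.2%). Estimates were positive for 17 and negative for 26 genes, with a median of -0.22 beside -0.01 over all genes. A median 95% interval extended 0.98 to either side of the estimate, wider than any change called in tumor, so that changes of that size were not detectable here.

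The smallest unadjusted p in stroma was that of Psme4. It had 698, 585, 753 and 437 normalized counts in WT libraries of stroma, and its IL-6 KO libraries had 362, 233, 456 and 269. WT library 4 lay below IL-6 KO library 3, and the log2 fold change of -0.92 ± 0.34 (SE) did not pass (limma adjusted p = 0.457). No gene was higher in IL-6 KO stroma without overlap, beside 2.54% of all genes, and 1 was lower without overlap, beside 3.25%. That gene was Psme2, named for this after its values were seen, with 123, 122, 117 and 153 in WT and 112, 116, 40.8 and 102 in IL-6 KO stroma (-0.57 ± 0.46, limma adjusted p = 0.724). Its near-identical copy Psme2b had 77.3, 87, 125 and 52.8 in WT and 196, 70.6, 184 and 199 in IL-6 KO stroma (0.87 ± 0.48, limma adjusted p = 0.602). How reads divide between these genes is uncertain, and their estimates had opposite signs.

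Other proteasome genes of stroma scattered widely. Psmd5, called lower in tumor, had 263, 247, 97 and 276 normalized counts in its WT libraries and 54, 178, 117 and 96.8 in its IL-6 KO libraries, with overlap through WT library 3 (-0.99 ± 0.49, limma adjusted p = 0.565). Psma5 (-0.74, limma adjusted p = 0.608) and Psmc2 (-0.83, 0.583) had negative estimates that did not pass. Psmc3ip had 43.6, 35.2, 24.5 and 66.4 in WT and 0, 25, 29.6 and 12.8 in IL-6 KO stroma, so that its estimate of -1.99 ± 1.05 rests on low counts. Of the untested genes, Psmg1 was at 0, 3.63, 8.41 and 13.8 in WT and 0, 10.3, 2.11 and 32.1 in IL-6 KO stroma, and Psmg4 at 0 to 9.06 and 0 to 9.53. Whether genotype acts differently in tumor and stroma was not tested, because the tables were normalized separately.

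Per kb, Psme3 was the most abundant proteasome gene of stroma, at 638 in WT and 524 in IL-6 KO stroma, which is near the 97 percentile of all genes there. Its 4 values were 2056, 1748, 1201 and 1792 normalized counts in WT and 644, 1655, 2105 and 1175 in IL-6 KO stroma, widely overlapping. Psme4 of the same class was at 95.3 and 50.9 per kb. Subcomplex medians in stroma were 84.8 and 72.9 per kb for alpha subunits, 97.5 and 117 for beta subunits, 143 and 169 for the base, 103 and 104 for the lid and 50.2 and 25.3 for the assembly factors tested. None of the pathway's other lists had a gene called in stroma (limma, 38 genes tested over the 4 lists).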

How the data were processed

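RNA of 16 libraries, 4 in each of 4 groups taken from the sample labels, was sequenced by the authors as single-end directional reads after ribosomal RNA depletion. The authors estimated transcript abundance with Salmon 1.3.0 on mouse build mm10 and deposited gene-level counts normalized by DESeq2 1.28.1, in a table each for tumor and stroma. These deposited values are a signal scaled per library and not raw counts, so no count model was run. The counting annotation was not given in the sources used here. Columns holding the authors' own log2 fold changes and p-values were not used, and 0 sample columns were left unmapped. Normalized counts repeat as multiples of what 1 read is worth, which gave the depth of each library. Salmon's estimates are fractional, and in tumor at most 5.17% of values lay within 0.01 of a whole number of such reads, so reads per gene are estimates and no test on whole reads was run.

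Each table was tested separately, two-sided, with limma 3.58.1 in R 4.3.3 on log2(value + 1), keeping genes with a mean normalized count over 10, with genotype as the only term, moderated variance with an intensity trend, and Benjamini-Hochberg adjustment over all genes at 0.05. Fold changes are on that scale, which understates those of low genes. Alternatives were pseudocounts of 0.5 and 5, no filter and a mean over 50, quantile normalization, subtraction of the library median, limma's array weights, a block on the replicate number, removal of a GC and length trend (loess), and leaving out each library in turn. The labels do not say whether replicate numbers pair the libraries.

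Members were found by symbol. The genes named are those called, those with the smallest p within each subcomplex, and in stroma those with the smallest p, 33 in all, with the others described by range or estimate. Members and lists were chosen with earlier results of these data known. Transcript length and GC content came from 1 representative transcript a gene in GENCODE vM21 (GRCm38). Stretches at least 97% identical over 150 nt to transcripts of other genes were found with BLAST 2.17.0 for 15 of the 45 genes. Some lay in neighbours that overlap the gene, such as Nek6 for Psmb7 and Mlx for Psmc3ip, and not in copies. Of the 45 genes, 10 overlap an exon on the opposite strand. Promoters came from RefSeq. Tables and figures used Python 3.11.15, pandas 2.3.3, NumPy 2.4.6, SciPy 1.17.1 and matplotlib 3.10.9. One item is not reported here.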

Additional observations from a re-analysis of the deposited data

Results flagged for a closer look

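Among 180 sets of 4 libraries (45 proteasome genes in 4 groups), 17 had 1 library far from the other three, its gap to the nearest taking up most of the group's range, beyond Dixon's critical value. Chance alone picks out about 1 in 20 such sets.

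In tumor, the outlying library was the lowest of its group in these genes. Psma2 in WT tumor library 2 had 3190 normalized counts, with the next value at 3891. Psma2 in IL-6 KO tumor library 2 had 3245 normalized counts, with the next value at 5254. Psmb5 in IL-6 KO tumor library 2 had 4800 normalized counts, with the next value at 6057. It was the highest in the others. Psma3 in IL-6 KO tumor library 3 had 4461 normalized counts, with the next value at 3570. Psma4 in WT tumor library 1 had 3719 normalized counts, with the next value at 3284. Psmd12 in IL-6 KO tumor library 2 had 3038 normalized counts, with the next value at 2812. Psmd3 in IL-6 KO tumor library 2 had 9439 normalized counts, with the next value at 7420. Psme4 in IL-6 KO tumor library 3 had 3332 normalized counts, with the next value at 2938. IL-6 KO tumor library 2 accounted for 4 of these values, 2 at each end.

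In stroma, the outlying library was the lowest of its group in these genes. Psmd14 in WT stroma library 4 had 147 normalized counts, with the next value at 217. Psmd5 in WT stroma library 3 had 97 normalized counts, with the next value at 247. Psme2b in IL-6 KO stroma library 2 had 70.6 normalized counts, with the next value at 184. It was the highest in the others. Psmb4 in WT stroma library 2 had 474 normalized counts, with the next value at 194. Psmd11 in WT stroma library 1 had 664 normalized counts, with the next value at 249. Psmd13 in WT stroma library 1 had 463 normalized counts, with the next value at 231. Psmd7 in IL-6 KO stroma library 4 had 278 normalized counts, with the next value at 179. Psmd9 in WT stroma library 1 had 284 normalized counts, with the next value at 117. Psme2 in WT stroma library 4 had 153 normalized counts, with the next value at 123. WT stroma library 1 accounted for 3 of these values, all at the high end. The causes were not tested.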

How the results depend on the processing

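The log2 median over the proteasome genes kept its sign in every alternative, in tumor at 0.04 to 0.11 and in stroma at -0.28 to -0.11 when 1 library was left out. The count called higher in tumor, 9 genes, was 15 with array weights, 6 with quantile normalization, 6 with the GC and length trend removed, and 5 to 15 when 1 library was left out. The count called lower, 5 genes, was 7 with array weights, 7 with quantile normalization, 4 with the GC and length trend removed and 3 to 6 when 1 library was left out. With the replicate number as a block, 7 genes were called higher and 3 lower. Same-numbered libraries had correlations of -0.019 to -0.00028 between their deviations in tumor and of -0.029 to 0.126 in stroma. Such correlations cannot decide whether the numbers pair libraries, and the labels do not say. The estimate of 1 called gene, Psmc6, changed sign, to 0.0052 with the GC and length trend removed. It was not called there (limma adjusted p = 0.969), and the cause was not tested. In stroma every alternative called 0 proteasome genes. Stroma libraries spread more than tumor libraries and held fewer reads per gene, and tumor depth differed with genotype; the part of depth was not tested.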
